A study of Rattus norvegicus with 96 samples.

Results

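The ventral tegmental area (VTA) of male rats treated with nicotine (NIC) was compared with that of male rats treated with saline (SAL). The comparison holds 15 of the 96 RNA-seq libraries of the series, 8 NIC and 7 SAL, each from the hand-dissected VTA of a different rat, and the members were chosen by the treatment, sex and region given in the sample labels. All rats were F1 progeny of the inbred strains F344 and BN; which strain was the mother of each rat is not given in the labels. NIC rats received 0.4 mg/kg nicotine and SAL rats 1.0 ml/kg saline each day for 4 days, and the labels place the harvest on day 17. The brains were taken without a further nicotine injection, so the libraries describe the state after a drug-free interval and not an acute response. Hand-dissected tissue holds neurons, glia, vessels and membranes together, so that fewer cells of a type and less RNA per cell cannot be told apart. Rat 5 of the SAL group had a pair of libraries, of which R2 was used, and no VTA library of SAL rat 3 was among the samples.

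The VTA holds the cell bodies of the mesolimbic dopamine neurons together with GABA and glutamate neurons. Nicotine opens nicotinic acetylcholine receptors, ion channels assembled from alpha and beta subunits, on these neurons and on the axon terminals that reach them, and dopamine neurons then fire more and release dopamine in the nucleus accumbens (NAc). Repeated intermittent injections can leave the locomotor response to a later dose enlarged, which is called locomotor sensitization (SST), and the VTA is the site where sensitization to many stimulants is known to be initiated. The question of the comparison was which transcripts still differed in this region once the drug had been withdrawn.

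The libraries held between 16566136 and 27736905 estimated counts, and every library contained the transcripts that define the region. Th, tyrosine hydroxylase, the rate-limiting enzyme of dopamine synthesis, lay between 411 and 846 CPM (counts of a gene per library scaled to a common total) in SAL and between 555 and 908 CPM in NIC, and Slc6a3, the dopamine transporter, between 545 and 1099 CPM and between 633 and 1216 CPM. The prep batch given in the labels was tied to treatment. Batches A and B held 5 SAL rats, batches D and L held 6 NIC rats, and 4 libraries, SAL rats 7 and 8 and NIC rats 10 and 12, shared batch C. Treatment and prep batch therefore cannot be told apart outside batch C, and values within it are given beside the genes described most fully. Of 80 named genes that were called, 77 had the same sign within batch C, 18 were called there and 13 were called with prep batch as a covariate. These 4 libraries were among those that gave the calls, so agreement in sign is partly built in and is no independent support. The fit with prep batch as a covariate is no separate check, since its treatment effect rests on the same 4 libraries. The summed level of 18 transcripts of meningeal fibroblasts, cells of the membranes around the brain, was 583 CPM in SAL rat 6, 777 CPM in SAL rat 7 and 1705 CPM in NIC rat 9, against 2649 to 4825 CPM in the other 12 libraries.

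Of 16879 genes tested, 949, or 5.62%, differed at an unadjusted p under 0.05, 396 higher and 553 lower in NIC. The count was 1554 without SAL rat 4 and 1603 in limma voom with quality weights. A gene is called higher or lower below when it passed this threshold. No gene passed a Benjamini-Hochberg adjusted p of 0.05 in edgeR's quasi-likelihood test, where the smallest adjusted p was 0.866, or in DESeq2, which called 1008 genes at the unadjusted threshold; a uniform spread of p-values would put about 844 genes below it. Single genes are therefore described with their values and spread, and none is established across the transcriptome. Called genes moved little, with a median absolute log2 fold change of 0.27, and 22 genes with a mean of at least 1 CPM were called beyond 2-fold, 7 higher and 15 lower. The median standard error of the log2 fold change was 0.0932 for genes of at least 1 CPM and 0.469 below that level.

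**Figure D1:**
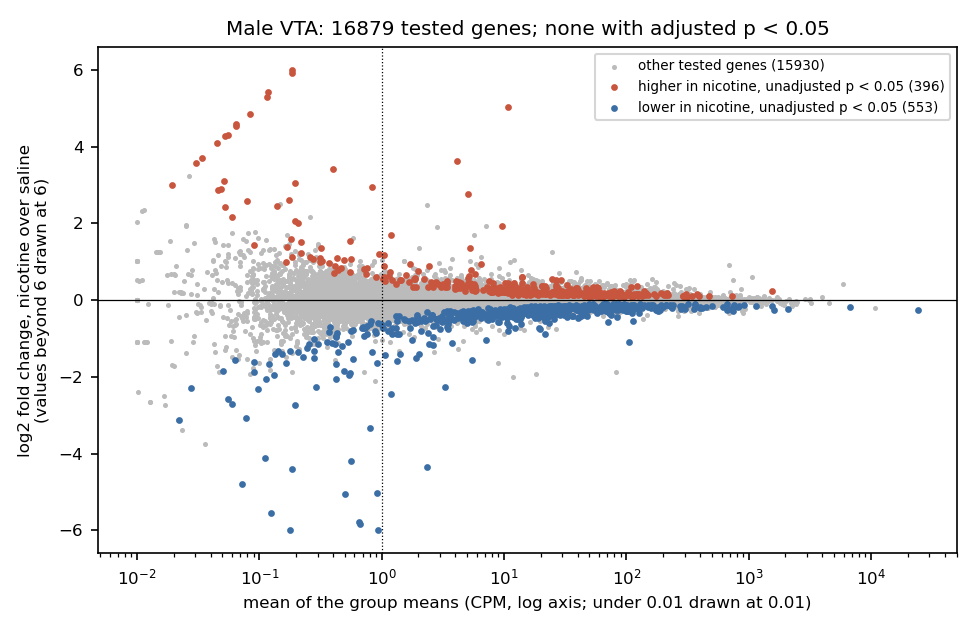
The log2 fold change of NIC over SAL in male VTA is plotted against the mean level in CPM on a log axis for the 16879 genes tested, with the 949 genes at an unadjusted p under 0.05 coloured by direction, the dotted line at 1 CPM and values beyond 6 drawn at 6. The fan of large fold changes lies at low levels, and most called genes above 1 CPM lie within 2-fold.

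Sap30, which encodes a subunit of the Sin3 histone deacetylase complex, was the only gene of at least 1 CPM whose NIC and SAL libraries did not overlap (1 of 14460, or 0.00692%). SAL libraries lay between 2.61 and 4.30 CPM with a median of 3.82, and NIC libraries between 4.34 and 6.14 CPM with a median of 5.06. The gap between the highest SAL and the lowest NIC library was small, and SAL rat 4 was low within its group. The log2 fold change was 0.45 (SE 0.118), with a two-sided exact permutation p of 0.000311, and the call was lost within batch C and with prep batch as a covariate. Random labels would separate the groups of any 1 gene fully with that same probability, and 1 of 14460 is no larger a share. Nek7, a kinase of mitosis and of the NLRP3 inflammasome, had the smallest p of the genes with a symbol. It lay between 24.8 and 35.4 CPM in SAL, with a median of 34.1, and between 21.5 and 28.9 CPM in NIC, with a median of 25.4. Only SAL rat 4 fell among the NIC rats, the log2 fold change was -0.39 (SE 0.082), and the exact permutation p was 0.00171. Both genes were chosen by their small p in these libraries, so that the permutation p describes them and is no further support. Within batch C the log2 fold change was 0.16 for Sap30 and -0.41 for Nek7. Their promoters are shown with those of Braf, a called kinase gene of the MAPK cascade, and of Th, the landmark of the region, because cAMP signalling through CREB is a known route from nicotinic receptors to transcription and its response element (CRE, TGACGTCA, which reads the same on both strands) stands in the last pair. Each runs from 250 bases before the transcript start to 50 bases after it on the gene's own strand, in RefSeq's GRCr8 build, which is not the build of the counts, at chr16:37758244-37758543 (plus strand) for Sap30, chr13:52700774-52701073 (minus) for Nek7, chr4:69476882-69477181 (minus) for Braf and chr1:207508169-207508468 (minus) for Th, with the CRE in capitals.
Sap30: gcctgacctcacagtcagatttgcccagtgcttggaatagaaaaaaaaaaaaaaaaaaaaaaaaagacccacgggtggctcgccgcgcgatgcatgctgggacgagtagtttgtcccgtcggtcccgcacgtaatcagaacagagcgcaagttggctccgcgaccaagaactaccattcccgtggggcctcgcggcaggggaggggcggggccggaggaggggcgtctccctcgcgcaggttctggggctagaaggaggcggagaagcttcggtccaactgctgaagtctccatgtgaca
Nek7: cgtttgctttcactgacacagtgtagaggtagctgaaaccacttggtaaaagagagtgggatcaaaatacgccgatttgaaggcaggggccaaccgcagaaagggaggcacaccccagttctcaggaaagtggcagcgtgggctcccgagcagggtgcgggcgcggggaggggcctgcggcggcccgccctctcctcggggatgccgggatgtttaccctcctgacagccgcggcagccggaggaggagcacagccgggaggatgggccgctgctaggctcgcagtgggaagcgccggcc
Braf: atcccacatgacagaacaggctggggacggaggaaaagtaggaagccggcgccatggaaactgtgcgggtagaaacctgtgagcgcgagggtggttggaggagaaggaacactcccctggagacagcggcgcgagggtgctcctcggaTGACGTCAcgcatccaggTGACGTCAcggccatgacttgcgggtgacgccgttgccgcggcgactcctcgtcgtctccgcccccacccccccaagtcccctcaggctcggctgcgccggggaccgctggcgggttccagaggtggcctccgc
Th: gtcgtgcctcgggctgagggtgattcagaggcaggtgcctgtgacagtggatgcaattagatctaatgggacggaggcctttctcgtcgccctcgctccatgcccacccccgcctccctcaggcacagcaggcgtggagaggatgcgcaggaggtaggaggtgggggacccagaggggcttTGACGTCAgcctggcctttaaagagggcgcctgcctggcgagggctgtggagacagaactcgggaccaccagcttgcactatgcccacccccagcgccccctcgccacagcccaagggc
The CRE starts 69 bases before the transcript start in Th and 102 bases before it in Braf, where a further copy follows, and the Sap30 and Nek7 windows do not hold these letters. It occurs in 1.91% of all 24206 promoters of this length. Among tested genes that a table of another comparison named, 3.24% hold it, beside 3.48% of the 115 called higher and 2.45% of the 163 called lower that had a promoter. The median GC content was 60.3% in the former and 65.3% in the latter, and 61.3% over the tested genes.

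Among the other genes with the smallest p that were higher in NIC, Trim11, a ubiquitin ligase, lay between 27.5 and 32.5 CPM in SAL and between 31.9 and 35.9 CPM in NIC, with a log2 fold change of 0.19 (SE 0.0487). Cks1b, which binds cyclin-dependent kinases and serves the SCF ubiquitin ligase, had a median of 6.72 CPM in SAL and 8.78 CPM in NIC, and only SAL rat 5, at 8.65 CPM, lay inside the NIC range of 7.90 to 9.47 CPM. Pkig, an inhibitor of the cAMP-dependent protein kinase, lay between 60.1 and 72.0 CPM in SAL and between 71.2 and 81.5 CPM in NIC, with 0.18 (SE 0.0489) as the log2 fold change. These differences were small, and the groups overlapped for all 3 genes. Npr1, a receptor of natriuretic peptides (log2 fold change 0.20), Polr1a, the largest subunit of RNA polymerase I (0.20), and Ring1, a subunit of Polycomb complexes (0.17), were also among these genes. All 6 kept their call when any of the 15 libraries was left out, and all 6 were higher within batch C, where the log2 fold changes were 0.25, 0.39, 0.24, 0.22, 0.32 and 0.13. There only Pkig and Polr1a were called, and with prep batch as a covariate Npr1 and Ring1 lost their call in edgeR's test, at an unadjusted p of 0.0645 and 0.226.

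Among the genes with the smallest p that were lower in NIC, Akap6, an anchor of the cAMP-dependent protein kinase, lay between 52.2 and 67.3 CPM in SAL and between 44.3 and 53.7 CPM in NIC, so that only NIC rat 10 overlapped with SAL, above SAL rats 4 and 7, with a log2 fold change of -0.25 (SE 0.0597). Gab2, an adaptor of receptor tyrosine kinases, fell by 0.28 on the log2 scale. Braf, named here as a called member of the MAPK list and not by its p, fell by 0.34, from a median of 6.12 CPM in SAL to 4.65 CPM in NIC. Agap1, which controls endosome traffic, had a median of 128 CPM in SAL and 106 CPM in NIC, and SAL rat 4, at 95.4 CPM, lay below every NIC library. Ednrb, the endothelin B receptor of astrocytes, fell by 0.42, and Samd4a, a repressor of translation, by 0.45. Fbxw7, the substrate receptor of an SCF ubiquitin ligase, had a median of 32.6 CPM in SAL and 27.0 CPM in NIC with a log2 fold change of -0.38 (SE 0.108). SAL rat 1 was far above the other SAL rats, at 52.0 CPM, and the call held without it. Each of these 7 genes kept its call when any library was left out, and within batch C their log2 fold changes were -0.19, -0.18, -0.38, -0.23, -0.39, -0.34 and -0.10 in the order named. Agap1 and Ednrb were called there, and none of the 7 was called with prep batch as a covariate, where the unadjusted p in edgeR's test lay between 0.0969 and 0.644. Ncoa7, a coactivator of nuclear receptors (log2 fold change -0.25), Hecw1, a ubiquitin ligase (-0.48), LOC102556092 (-0.29) and Soga3 (-0.44) were also among the genes of smallest p, with -0.18, -0.26, -0.33 and -0.35 within batch C, and none was called with prep batch as a covariate.

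**Figure D2:**
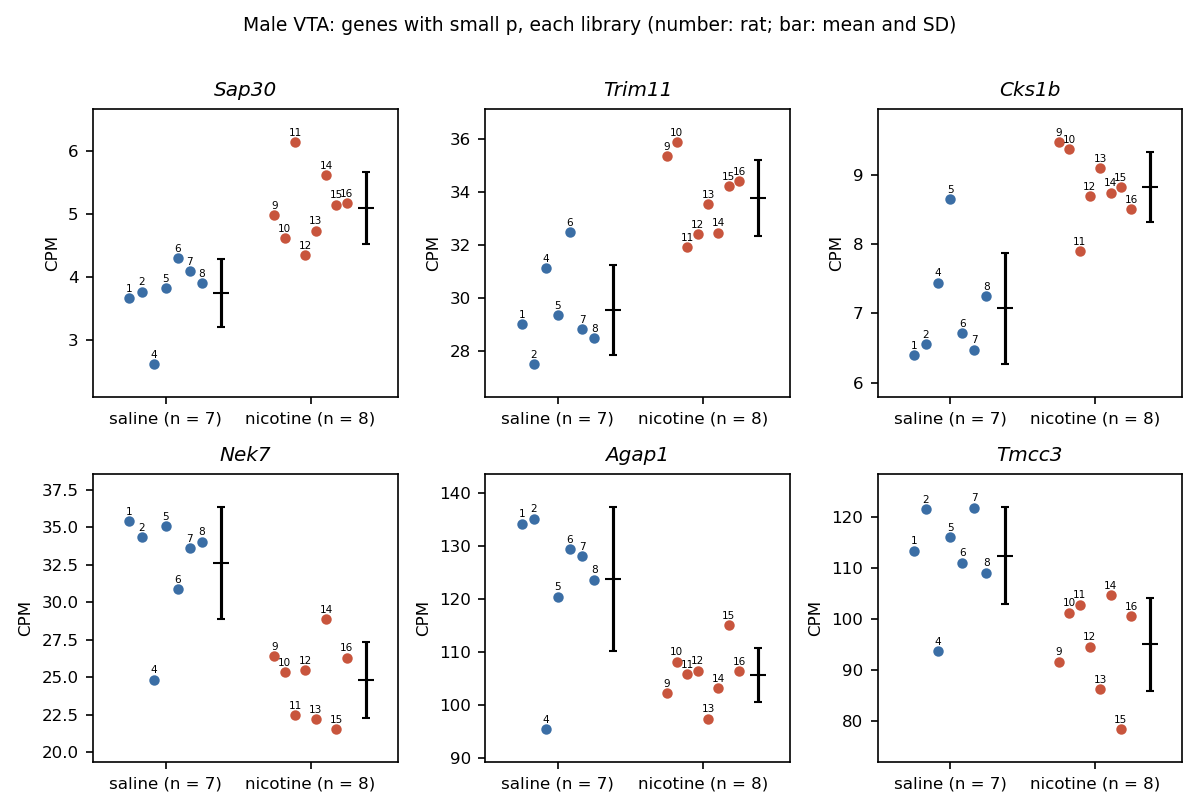
CPM of Sap30, Trim11, Cks1b, Nek7, Agap1 and Tmcc3 in each of the 7 SAL and 8 NIC libraries, numbered by rat, with the group mean and SD as a bar beside the points. The Sap30 groups do not overlap, and for Nek7, Agap1 and Tmcc3 the low SAL point, SAL rat 4, lies among or below the NIC libraries.

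The largest fold changes belonged to scarce transcripts that a few rats carried. Slc17a8, the vesicular glutamate transporter VGLUT3, lay between 0.495 and 4.83 CPM in SAL, with a median of 1.26, and between 0.247 and 1.87 CPM in NIC, with a median of 0.520. SAL rats 1 and 2 were the 2 high libraries and the groups overlapped. The log2 fold change was -1.60 (SE 0.490), and the call held when any library was left out, with an exact permutation p of 0.0208, but not within batch C, where the log2 fold change was -1.03. Pomc, the precursor of beta-endorphin and of melanocortins, was between 2.62 and 3.81 CPM in all SAL libraries. In NIC it was 17.9 CPM in rat 10 and 17.7 CPM in rat 13, and 2.41 to 6.75 CPM in the other 6 rats. On the log2 scale the difference was 1.35 (SE 0.415) with a p of 0.0404 in the exact permutation test, and its call held when either high rat was left out. The medians were 2.94 CPM in SAL and 4.93 CPM in NIC, and within batch C, which holds rat 10, the log2 fold change was 2.07. Pomc is made by neurons of the arcuate nucleus of the hypothalamus, and the summed level of 6 hypothalamic and mammillary transcripts was 8.26 CPM in NIC rat 10 and 21.3 CPM in NIC rat 13, against 5.56 to 17.2 CPM in the other NIC rats and 5.67 to 13.3 CPM in SAL. Their part in the Pomc result was not tested.

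Transcripts of acetylcholine neurons were lower in NIC through a few SAL rats. Chat, choline acetyltransferase, which makes acetylcholine, was 1.31, 2.25 and 4.96 CPM in SAL rats 1, 2 and 8 and at most 0.450 CPM in the other 4 SAL rats, while all 8 NIC rats lay between 0.219 and 0.625 CPM. The medians were thus nearly equal, 0.450 and 0.460 CPM, although the log2 fold change was -1.64 (SE 0.610). Slc18a3, the vesicular acetylcholine transporter, had 2.00, 3.49 and 6.32 CPM in SAL rats 1, 2 and 8, but also 1.99 CPM in NIC rat 11, against at most 0.987 CPM in the other libraries, and -1.41 (SE 0.590) on the log2 scale. Neither difference exceeded the spread in the exact permutation test (p 0.251 and 0.154), and edgeR's call of Chat was lost without SAL rat 8 (log2 fold change -0.83) and that of Slc18a3 without SAL rat 2 or 8 (up to -0.79). Chrm2, the muscarinic M2 receptor, was the more even of the 3 called genes among the 9 measured in acetylcholine synthesis, release and breakdown, with a median of 2.71 CPM in SAL and 1.32 CPM in NIC and -1.18 (SE 0.402) on the log2 scale, where the exact permutation p was 0.0266. Of the 8 members of this list named by a table of another comparison, 2 were called lower, beside 3.05% of all genes so named. Within batch C, which holds SAL rat 8, the log2 fold changes of Chat, Slc18a3 and Chrm2 were -2.13, -2.79 and -1.12, and none was called. Chat and Slc18a3 also mark the motor neurons that lie beside the VTA, and 3 of the 6 measured motor neuron transcripts had a negative log2 fold change. The third of these was Slc5a7, the choline transporter, at -0.68 (SE 0.413), with 10.6 and 8.69 CPM in SAL rats 2 and 8 against at most 4.87 CPM in every other library. Isl1 was at 1.02, Prph at 0.07 and Ret at 0.10, and apart from Chat and Slc18a3 none was called. The summed level of the 6 transcripts lay between 211 and 335 CPM in SAL and between 242 and 351 CPM in NIC, most of it from Ret, which dopamine neurons also express and which had a mean of 232 CPM, and their part in the result was not tested.

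**Figure D3:**
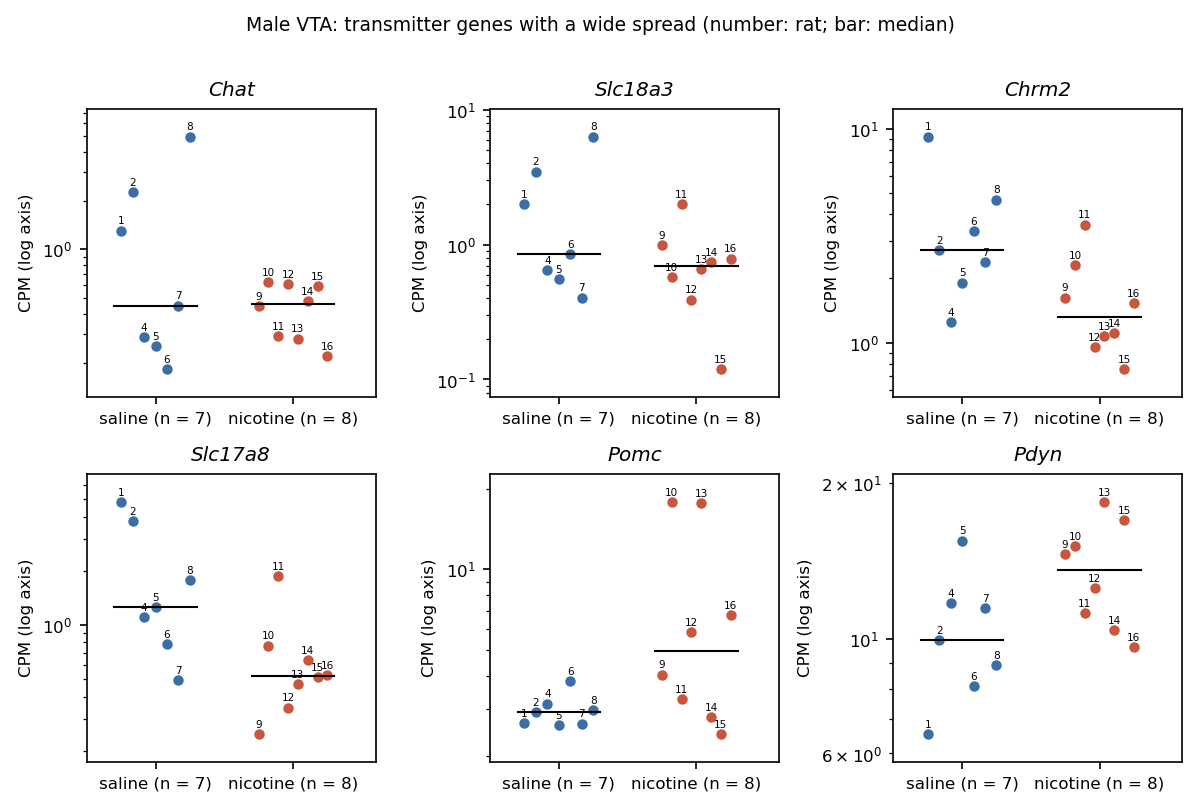
CPM on a log axis of Chat, Slc18a3, Chrm2, Slc17a8, Pomc and Pdyn in each library of the SAL and NIC groups, with a bar at the median. Chat and Slc18a3 are high in SAL rats 1, 2 and 8 (for Slc18a3 NIC rat 11 lies beside SAL rat 1), and Pomc in NIC rats 10 and 13, while the rest of each group overlaps.

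No nicotinic receptor subunit that could be examined by name was called. Of the 16 nicotinic receptor subunit genes, 4 had a symbol and passed the filter. The others, among them Chrna4, Chrna5, Chrna6 and Chrnb3, were not examined. Chrnb2, the beta2 subunit that most brain nicotinic receptors contain, lay between 23.1 and 28.2 CPM in SAL and between 19.7 and 33.2 CPM in NIC (log2 fold change -0.01, SE 0.097). The log2 fold changes of Chrna3, Chrna1 and Chrnb4 were 0.18, 0.14 and 0.08, with standard errors of 0.170, 0.147 and 0.261. Ric3, a chaperone of receptor assembly, was lower by -0.12 at an unadjusted p of 0.0438 in edgeR's test, a call that was lost when any of SAL rats 2, 5, 7 and 8 or NIC rats 9, 11, 13 and 15 was left out. The 7 measured genes of dopamine synthesis, transport and breakdown, among them Th (log2 fold change 0.21, SE 0.142) and Slc6a3 (0.28, SE 0.158), also held no call, with a median log2 fold change of 0.15; within batch C these values were -0.05 for Th and 0.00 for Slc6a3. Nr4a2, a transcription factor that dopamine neurons need and an immediate early gene, was called, with a median of 20.0 CPM in SAL and 31.5 CPM in NIC and a log2 fold change of 0.41 (SE 0.143) that held with every library left out and was 0.45, not called, within batch C. Pitx3, which acts with Nr4a2, had a log2 fold change of 0.31 (SE 0.158) and was not called. The summed level of 12 dopamine neuron transcripts lay between 1545 and 3036 CPM in SAL and between 1910 and 3300 CPM in NIC. None of the 9 dopamine receptor and signalling genes or the 12 genes of GABA signalling was called.

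Gene symbols were known only from tables of the study, and the table for male VTA adds symbols for genes that it lists as changed: 10.2% of the tested genes with a symbol were called, against 1.54% of those without one. Lists are therefore counted in full and again over the members that a table of another comparison names, for which 2.26% of 7374 genes were called higher and 3.05% lower, with a median log2 fold change of 0.01. Counts below are for the full list, followed, where these differ, by those of the members named elsewhere. The shares to set beside a full list are those of all tested genes with a symbol, of which 4.17% were called higher and 6.03% lower.

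Synaptic genes were lower in NIC where they were called. Of 20 genes of glutamate receptors and transporters, 8 were called lower and none higher, and of the 15 named elsewhere 3 were lower, beside 3.05% of all such genes, with a median log2 fold change of -0.02. Slc1a2, the transporter that clears most glutamate from the synapse, had a median of 18.7 CPM in SAL and 13.9 CPM in NIC (log2 fold change -0.33, SE 0.114, and -0.21 within batch C). Grm8, a presynaptic metabotropic receptor, was 10.2 to 13.4 CPM in 6 SAL rats and 37.2 CPM in SAL rat 1, against 6.61 to 11.4 CPM in NIC, and kept its call without that rat, with a log2 fold change of -0.37 within batch C. Grm5, Grin2a, Grin3a and Grik1, which encode metabotropic, NMDA and kainate receptors, had log2 fold changes of -0.49, -0.45, -0.26 and -0.40. Within batch C none of the 20 was called lower and 5 were called higher, and between 5 and 9 were called lower when a library was left out, the fewest without NIC rat 9.

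Of 35 synaptic adhesion molecules, 8 were called lower and none higher, and 4 of the 29 named elsewhere, with a median log2 fold change of -0.04. Ctnna2, the neuronal alpha-catenin that ties cadherins to actin, lay between 27.4 and 33.7 CPM in SAL, with a median of 31.0, and between 20.9 and 30.2 CPM in NIC, with a median of 24.8. The groups overlapped, and it had a log2 fold change of -0.29 (SE 0.0824) and, within batch C, -0.21. Pcdh9 and Pcdh17, protocadherins, had log2 fold changes of -0.46 and -0.30, Adgrl3, a latrophilin receptor, of -0.21, and Cntn1 and Tnr, a contactin and its extracellular ligand, of -0.16 and -0.45. The count was 4 without SAL rat 2, SAL rat 5, NIC rat 9 or NIC rat 13 and 11 without NIC rat 11. Of 26 genes of synaptic vesicles and release, 4 were called lower and none higher (3 of 25 named elsewhere, median -0.09). Napb, the brain form of the SNAP proteins that recycle SNARE complexes, had a median of 27.8 CPM in SAL and 21.8 CPM in NIC (log2 fold change -0.50, SE 0.151), and Rab3c, a vesicle GTPase, 11.8 and 8.72 CPM (-0.35, SE 0.116). Within batch C the log2 fold changes of these genes were -0.55 and -0.45. The count of called vesicle genes lay between 2, without SAL rat 6 or NIC rat 11, 12 or 13, and 8, without NIC rat 9.

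Of 25 potassium channel genes, 7 were called lower and 1 higher (4 and 1 of 22 named elsewhere, median -0.10). Kcnj10, the Kir4.1 channel with which glia take up potassium, had a median of 40.8 CPM in SAL and 28.0 CPM in NIC (log2 fold change -0.43, SE 0.138, and -0.46 within batch C). The axonal channel genes Kcna1 and Kcna2 had log2 fold changes of -0.48 and -0.23, Kcnj3, a channel opened by G proteins, of -0.40, Kcnc4 of -0.40 and Kcnk3, a leak channel, of -0.19. Kcnk2, another leak channel, was the higher member at 0.25. Kcnip2, an auxiliary subunit near 1 CPM, had a log2 fold change of -1.49 that was no longer called without SAL rat 4, at -1.09. Between 5 and 9 members were called lower when a library was left out, and 4 within batch C. Of 28 sodium, calcium and HCN channels and calcium pumps 3 were lower and 1 higher (3 and none of 27 named elsewhere). The lower genes were Atp2b3, a calcium pump (log2 fold change -0.15), Scn8a, a sodium channel (-0.20), and Hcn2, a pacemaker channel (-0.23), and the higher gene was Itpr1, the IP3 receptor (0.17). Their calls were lost without any of 2, 5, 10 and 6 single libraries. The lower count lay between 0, without NIC rat 13, and 5, without NIC rat 9 or 10, and within batch C 2 were lower and 10 higher. In CaMK, CREB and MAPK signalling 3 of 20 genes were lower (2 of 18 named elsewhere), namely Akap6, Braf and Ntrk2, the BDNF receptor, which had a log2 fold change of -0.10 and lost its call without any of 7 single libraries and within batch C.

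Oligodendrocyte transcripts, the RNA of the myelin-forming cells, lay lower in NIC as a group. Of 16 genes 6 were called lower and none higher, and of the 12 named elsewhere 4 were called lower and 11 had a negative log2 fold change, with a median of -0.16. Mobp, a myelin protein, had a median of 1855 CPM in SAL and 1426 CPM in NIC (log2 fold change -0.27, SE 0.0991). Mbp, myelin basic protein, fell by 0.25, Gjc3, a gap junction protein of these cells, by 0.51 and Ermn, a cytoskeletal protein of myelin, by 0.33. The summed level of the 16 genes lay between 36213 and 50317 CPM in SAL, with a median of 46316, and between 31690 and 45672 CPM in NIC, with a median of 37626, and the groups overlapped. SAL rat 4 was the lowest SAL library and NIC rat 14 the highest NIC library. The median log2 fold change of the list stayed between -0.23 and -0.15 when a library was left out and was -0.38 within batch C. The number called was less steady. It was 2 without SAL rat 1, SAL rat 7 or NIC rat 12 and 10 without SAL rat 4, and Mbp lost its call without SAL rat 1 or 7 or NIC rat 12 or 15, at log2 fold changes no nearer to 0 than -0.21. Of 8 genes of oligodendrocyte precursors, Tnr and Gpr17 were called lower, but, like Ermn, each lost its call without any of 7 to 10 single libraries, and within batch C the log2 fold changes of Tnr and Gpr17 were 0.0049 and -0.07.

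**Figure D4:**
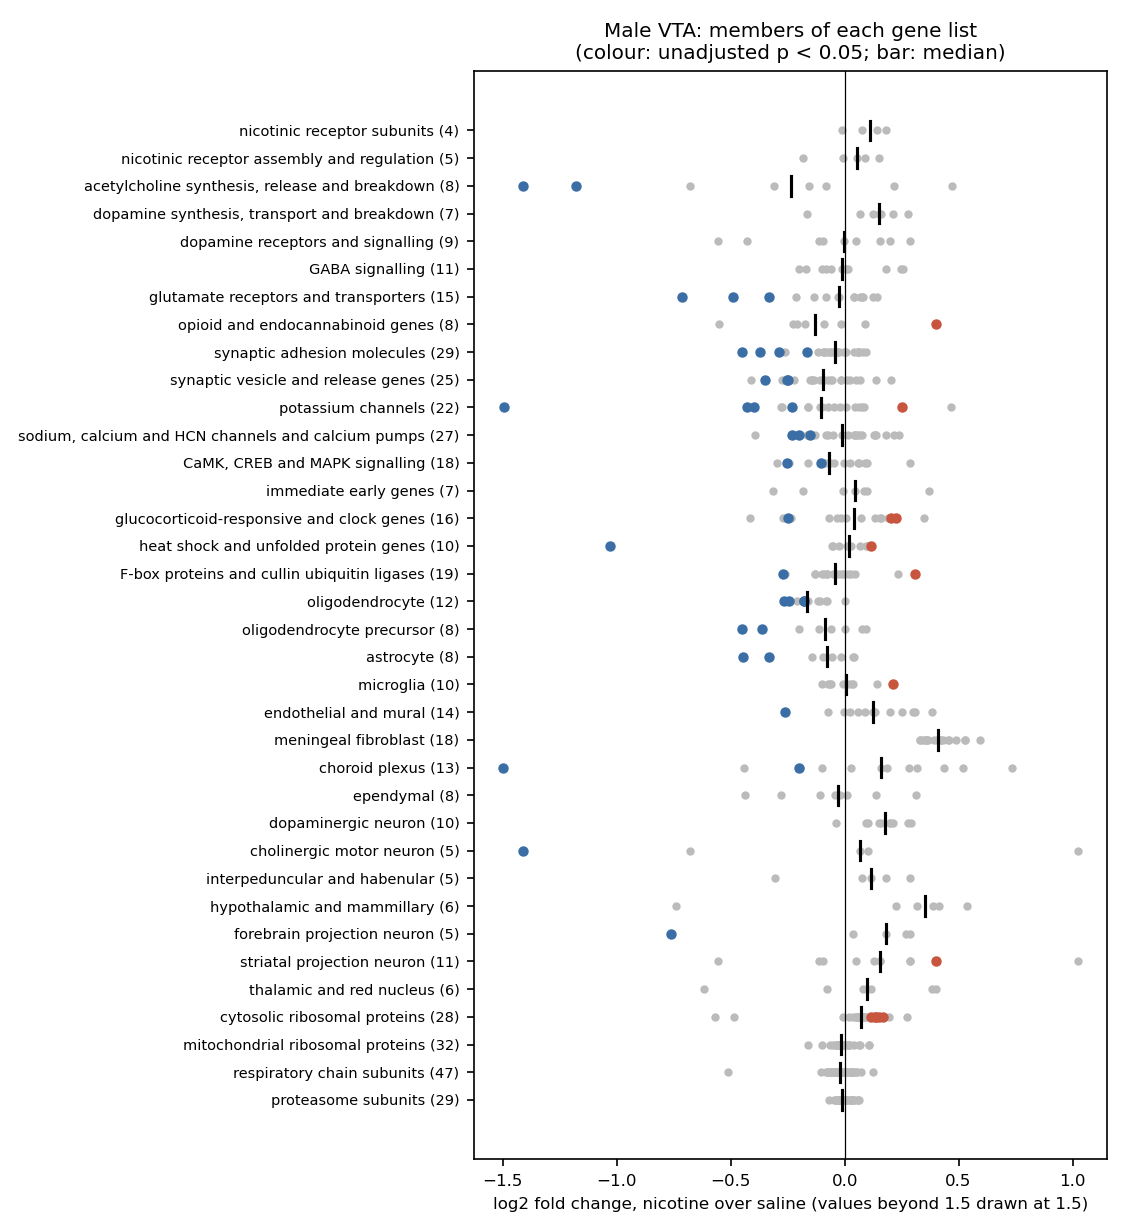
The log2 fold change of NIC over SAL in male VTA for each tested member of the gene lists that a table of another comparison names, with a bar at each list's median and values beyond 1.5 drawn at 1.5. The oligodendrocyte points lie almost all below 0, the meningeal fibroblast points all above 0, and each of the other lists drawn, those with at least 4 such members, has points on both sides; called members are coloured, blue for lower and red for higher.

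Cytosolic ribosomal protein genes were called in the other direction. Of 35 such genes, 10 were called higher and none lower, and 5 of the 28 named elsewhere, with a median log2 fold change of 0.07. Rps14 had a median of 291 CPM in SAL and 328 CPM in NIC (log2 fold change 0.15, SE 0.0496), and the other 9 called members, among them Rps27 and Rplp1, had log2 fold changes between 0.09 and 0.17. The summed level lay between 8422 and 9862 CPM in SAL and between 8852 and 10652 CPM in NIC. The count depended on single libraries, at 2 without SAL rat 8 and 16 without SAL rat 4, and no member was called within batch C. None of the 32 mitochondrial ribosomal protein genes, the 47 respiratory chain genes or the 29 proteasome genes was called, and their median log2 fold changes were -0.02, -0.02 and -0.01. These counts depended on the libraries, since 18 respiratory chain and 4 mitochondrial ribosomal protein genes were called lower within batch C. Sdha, a subunit of succinate dehydrogenase, had a log2 fold change of -0.11 and was called there, at -0.23, and when any of 5 single libraries was left out. Ribosomal protein genes have many processed copies, between which reads may have been divided.

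The 18 transcripts of meningeal fibroblasts, such as Col1a1 and Igf2, all had a positive log2 fold change, between 0.33 and 0.60 with a median of 0.41, but none was called, since the spread between libraries was wide. With SAL rats 6 and 7 and NIC rat 9 left out, the median was 0.12, and the number of called genes in the transcriptome was 670, 256 higher and 414 lower. The part of membrane tissue in the calls was not tested further; of the lists above, the count of lower glutamate genes was then 4, of adhesion molecules 5, of potassium channels 6, of oligodendrocyte genes 2 and of higher ribosomal protein genes 2. The median log2 fold changes of these lists over the 12 libraries were -0.09, -0.05, -0.10, -0.16 and 0.07 in the order named, against -0.11, -0.06, -0.16, -0.18 and 0.08 over all 15. Astrocyte genes were split, with Slc1a2 and Slc4a4 lower and Gjb6, a gap junction protein, higher (2 and 1 of 9, or 2 and none of 8 named elsewhere), and the call of Gjb6, at 0.23, was lost without SAL rat 6. Of 11 microglia genes, Tyrobp and C1qb were higher, at 0.21 and 0.13 (1 of 10 named elsewhere), and C1qb was no longer called without any of 10 single libraries. Of 13 choroid plexus genes, Tmem72 and Enpp2 were lower, the latter by 0.20 and no longer called without any of 9 single libraries, while Ttr, the defining transcript of that tissue, was at a mean of 3.32 CPM. Tmem72 was 27.6 CPM in SAL rat 1 and at most 3.45 CPM in any NIC library, and without that rat its log2 fold change went from -2.26 to -0.60, which was not called. Iqgap3 likewise went from -1.56 to -0.51 without SAL rat 1. Of 14 endothelial and mural genes Rgs5, of pericytes, was lower, by 0.26, and lost its call without any of 9 single libraries. Of 5 forebrain projection neuron genes Lamp5 was lower, by 0.76, with 49.2 CPM in SAL rat 1 and 9.84 to 27.6 CPM in the other SAL rats, against 7.26 to 21.0 CPM in NIC, and it kept its call when any library was left out. None of the ependymal, serotonergic, interpeduncular, hypothalamic, thalamic or red blood cell transcripts was called over all libraries. Among the members with values by setting, Gata3 (-0.66), Sst (-0.61), Calb1 (0.64) and Slc17a6 (0.27) were called within batch C.

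Stress and activity genes were counted beside the 10.2% of tested genes with a symbol that were called (5.62% of all tested genes). Among 10 immediate early genes Nr4a2 was the single call (none of 7 named elsewhere), and of 16 glucocorticoid-responsive and clock genes Cdkn1a (log2 fold change 0.20) and Errfi1 (0.23) were higher and Klf9 (-0.25) was lower, although Klf9 was at 0.10 within batch C and the calls of Klf9 and Errfi1 were lost without any of 6 and 4 single libraries. Of 10 heat shock and unfolded protein genes Manf (0.12) was higher and Hspa8 (-1.03) lower, but Manf lost its call without any of 11 single libraries and Hspa8 without SAL rat 1, at -0.58. Of 9 opioid and endocannabinoid genes Pomc and Pdyn were higher (1 of 8 named elsewhere). Pdyn, the dynorphin precursor, had a median of 9.95 CPM in SAL and 13.6 CPM in NIC (log2 fold change 0.40, SE 0.176), with a p of 0.0513 in the exact permutation test, and lost its call without any of SAL rats 1, 2, 6 and 8 and NIC rats 9, 10, 13 and 15. In the list of F-box and cullin ubiquitin ligases 3 of 23 genes were lower, Fbxw7, Fbxl17 and Klhl20. Klhdc8b was higher, at 0.31 (SE 0.0839), but it stands in the list without an established place in that family. Of the 19 named elsewhere 1 was lower and 1, Klhdc8b, higher. The strongest folds upward belonged to transcripts that were present in some rats and nearly missing in others. Fam50a was 2.81 to 16.0 CPM in 6 NIC rats and 0 in NIC rats 9 and 13, and 0 in 5 SAL rats and at most 2.25 CPM in the other 2. LOC103689943 was 12.5 to 22.3 CPM in NIC rats 9, 11, 13 and 14 and at most 3.67 CPM in every other library, and AC130741.1 was 152 CPM in NIC rat 9 against a NIC median of 2.24 CPM. Such transcripts can share reads with near-identical copies, which was not measured here, and their values are uncertain. Those of Hspa8 are uncertain too, since it was listed at 0.217 to 6.18 CPM although it encodes an abundant chaperone.

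Nicotine's difference in male VTA was set against the same contrast in 16 libraries of female VTA. Prep batch was tied to treatment in female VTA too. Batches G, H and I held only NIC rats there, batch K only SAL rats, and batches J and L both. The difference between the effects was called for 1853 genes, 11.0% of those tested, with no adjusted call (smallest adjusted p 0.116). With prep batch as a covariate it was called for 462 genes, fewer than the about 844 that a uniform spread of p-values would give. Sex, treatment and prep batch are thus not fully told apart here. Single genes were chosen by their values in male VTA, so that a called difference from females or from another region describes them and is no independent support. In females 1559 genes, or 9.24%, were called by their own contrast (4.04% higher and 5.20% lower), and 93 of these were among the 949 male calls, which is 9.80% of the male list, near the 9.24% of all tested genes, and 5.97% of the female list. Of the 93 genes 10 moved in the same direction in both sexes and 83 in opposite directions. Of all 949 male calls, 651 had the opposite sign in females and 298 the same. The share of opposite signs over all tested genes is not given here, so the 83 genes have no background to be judged by. The female log2 fold changes of the male genes were 0.26 (SE 0.0865) for Slc1a2, against -0.33 in males, 0.45 (SE 0.180) for Rab3c, against -0.35, and 0.20 (SE 0.0656) for Ctnna2, against -0.29. The 3 differences, of -0.60 (SE 0.144), -0.81 (SE 0.222) and -0.49 (SE 0.107), were called. Chat, Slc18a3 and Slc17a8 were at 1.09, 1.35 and 1.06 in females (SE 0.663, 0.673 and 0.612) and Pomc at 1.02 (SE 0.499), and none of these 4 was called there; the difference from males was called for the first 3 and not for Pomc. For Sap30 and Mobp, at 0.14 and -0.05 in females, the difference between sexes was not called. The lists were not tested as such between the sexes. Meningeal fibroblast genes had a median log2 fold change of -0.73 there, with 7 of 18 called lower, and ribosomal protein genes of -0.11, with 17 of 35 called lower, against 0.41 and 0.08 for the full lists in males. Synaptic adhesion molecules had 8 of 35 called higher, and oligodendrocyte genes had none of 16 called, with a median of 0.01. The difference from males was called for 11 of the 18 meningeal, 23 of the 35 ribosomal protein, 14 of the 35 adhesion and 1 of the 16 oligodendrocyte genes, beside 11.0% of all genes. These counts are for full lists, of which 18, 28, 29 and 12 members in that order were named elsewhere. The remaining members entered partly through their change in male VTA, and the differences are not given without them. Markers of other cells moved with the contrast in females too: 11 of 14 endothelial and mural transcripts were called lower there, with a median of -0.37 and 11 differences from males called, and 3 of 6 hypothalamic and mammillary transcripts were called higher, with a median of 0.82 and 3 differences called. With the 3 male libraries of least meningeal RNA left out, 1242 genes had a called difference between the sexes. The part of tissue composition in that difference was not tested further.

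Against the NAc core and NAc shell, the dopamine target regions of the same male rats, 1027 genes (6.08%) and 397 genes (2.35%) had a called difference of effects, with no adjusted call in either. Nek7 was at 0.30 (SE 0.152) in the core and -0.11 (SE 0.304) in the shell, and its difference was called for the core. Sap30 was at 0.02 in the core and -0.05 in the shell and differed from the VTA in both, by 0.42 (SE 0.164) and 0.49 (SE 0.183). Mobp was 0.25 (SE 0.0930) in the core, opposite to its VTA value, and oligodendrocyte genes had 3 of 16 called higher there, beside 5.78% of all tested genes, with 8 differences from the VTA called. Those counts are for the full list, of which 12 members were named elsewhere. In the shell the list's median was -0.13 with none called. Slc17a8 was at 0.08 in the core and -0.32 in the shell, both called as different from the VTA, and Klhdc8b at 0.15 and 0.01, of which the shell differed. Meningeal fibroblast genes had a median of 0.50 in the core, with 15 of 18 called higher and no difference from the VTA called, and 0.12 in the shell, with none called, beside 2.46% of all tested genes.

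**Figure D5:**
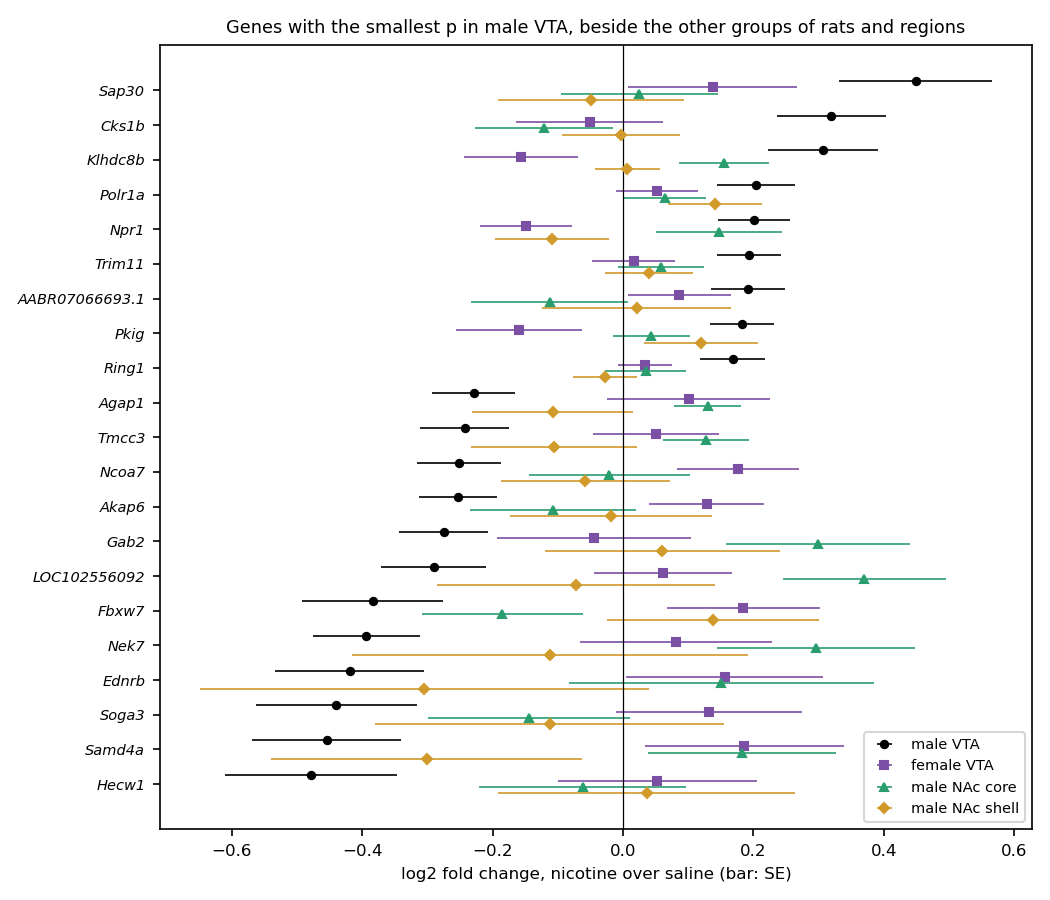
Log2 fold change of NIC over SAL with its SE for the genes of smallest p in male VTA whose change there was under 2-fold, in male VTA, female VTA, male NAc core and male NAc shell. The genes were chosen by their male VTA values, and the female points of all but Gab2 among the lower genes lie above 0.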

How the data were processed

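The series holds RNA-seq libraries of the VTA and of both parts of the NAc from F1 rats of both sexes. According to the study's methods the authors trimmed reads with fastp and quantified them with Salmon on the rat genome Rnor v6, and tximport summed transcripts to genes; the submitters' notes give fastp 0.20.0 and Salmon 0.12.0. The deposited values are estimated counts per gene and library, whole numbers without normalization, for 17637 genes. How they became whole numbers is not given in the sources used here. Every count column matched a sample (0 without one). Groups came from the labels. Library R1 of SAL rat 5 was left out; the chi-square of R1 and R2 divided by its degrees of freedom was 3.03, and 5.53 to 57.9 over the 105 pairs of libraries analysed. Each library of a group came from a separate rat.

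Tests were run with edgeR 4.0.16 in R 4.3.3 (TMM, quasi-likelihood test, no covariate), with DESeq2 1.42.0, limma 3.58.1 and sva 3.50.0 as alternatives, and plotted in Python 3.11.15 with matplotlib 3.10.9. The study used DESeq2. Genes were tested where the normalized count exceeded 10 in 3 or more of the 94 libraries used in the series. Differences between sexes or regions were tested as interactions. CPM used TMM factors, and log2 CPM (prior count 2) of single genes was also compared by exact permutation, two-sided. Genes named in the text were taken from the 12 of smallest p in each direction with a symbol and at least 1 CPM, the 4 of largest fold in each direction among those called, up to 4 called members of each list, nicotinic subunits and landmark genes, and 3 genes the study measured (103 in all, without 2 genes that are not reported here), of which not every one is described; other list members and Jazf1 were named after their values were seen. The members, lists and rule were chosen with earlier results of these data known. Symbols came from the study's supplementary tables (7964 of 17637 identifiers, 7377 in tables other than that of male VTA), and promoters, matched by symbol for 78 named genes, from RefSeq. In the same rats, deviations from group means correlated between VTA and NAc core with a median of 0.0283 and between VTA and shell of 0.0433, against -0.00505 and 0.00141 for other rats; these values were near 0, and the pairing comes from the labels, which give the same animal numbers in each region. The alternatives were other normalizations, tests, filters, library choices, prep batch or a surrogate variable as a covariate, batch C alone, the rat as a block and leaving out each library; leaving out the 3 libraries of least meningeal RNA and using R1 for R2 were added after the data were seen. Totals of 16566136 to 27736905 counts make values under 1 CPM rest on few reads. The authors' own fold changes and p-values, and the self-administration libraries, were not used here.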

Additional observations from a re-analysis of the deposited data

Results flagged for a closer look

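In 19 of 242 sets of values, each a named gene or a summed marker list in 1 treatment group, 1 library stood far from the rest of its group by Dixon's criterion on log2 CPM; chance alone gives about 12.1. In 7 of these the library was SAL rat 4. It was lowest of the SAL rats for Sap30 (2.61 CPM, the other 6 between 3.66 and 4.30), Nek7 (24.8, others 30.9 to 35.4), Agap1 (95.4, others 120 to 135), Tmcc3 (93.7, others 109 to 122), Ermn (97.6, others 134 to 164) and Enpp2 (194, others 250 to 283), and highest for Manf (70.4, others 58.3 to 61.1). SAL rat 1 was highest for Fbxw7 (52.0 CPM, others 28.1 to 35.2), Grm8 (37.2, others 10.2 to 13.4) and Kcnc4 (144, others 64.4 to 91.0).

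Among NIC rats, rat 15 was lowest for Fbxw7 (21.8 CPM, others 25.7 to 29.0), rat 13 for Napb (14.1, others 19.9 to 24.3), rat 12 for Hspa8 (0.217, others 0.937 to 1.83), rat 10 for LOC108348083 (0, others 5.82 to 39.3), and rat 9 for Kcnip2 (0.0987, others 0.695 to 2.02) and Gjb6 (122, others 145 to 162), while rat 11 was highest for Tmem72 (3.45, others 0.570 to 1.13). Summed CPM of interpeduncular and habenular markers was highest in NIC rat 13 (123, others 82.4 to 99.0), and that of thalamic and red nucleus markers lowest in NIC rat 11 (315, others 469 to 656); their part in any gene's result was not tested.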

How the results depend on the processing

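Of 80 named genes that were called, 51 kept their call whichever library was left out, and 3 (Pkig, Polr1a and Pomc) also under every other setting, while 18 of the 80 were called within batch C and 13 with prep batch as a covariate. The number of called genes was 974 with DESeq2's size factors, 1008 with DESeq2's own test, 1014 without a filter, 811 with a count of at least 10 in every library, 752 with all 12 groups in one fit and 953 with R1 in place of R2. It was 1603 (626 higher, 977 lower) in limma voom with quality weights, and with prep batch as a covariate the lower genes were 365 and the total 763. Within batch C alone 630 genes were higher and 601 lower, 887 of the 949 kept their direction there, and 190 were called there in it. The batch C libraries were among those that gave the 949 calls, so agreement in direction is partly built in. Without the 3 libraries of least meningeal RNA 256 genes were higher. With 1 library left out, the total lay between 676 and 1554, the higher genes between 245 (without NIC rat 12) and 704, and the lower genes between 376 and 850; the highest values are without SAL rat 4, and 861 of the 949 were among the 1554. The cause was not tested.

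The count of adjusted calls was 0 with each library left out and 1 with all 12 groups in one fit (ENSRNOG00000016613, log2 fold change -6.26, 0 to 11.7 CPM in SAL and at most 0.117 in NIC) and within batch C (ENSRNOG00000018148). For the difference from female VTA, prep batch as a covariate left 462 called genes, and DESeq2's test gave 1 adjusted call (Jazf1, -0.79). The count was 1727 without female NIC rat 2, 2034 without male SAL rat 4 and 1242 without the 3 male libraries of least meningeal RNA. No other libraries were left out of this test. For NAc core, leaving out SAL rat 4 gave 1 adjusted call. For NAc shell, a count of at least 10 in every library left 257 called genes. With the rat as a replicate block, the core count was 803 and the shell count 571, with 0 adjusted calls, so pairing moved neither by over 1.5 times.

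Signs turned with prep batch as a covariate and within batch C for LOC108348083 (-1.22 and -1.23), Chrna3 (-0.10 in both), Klf9 (0.095 in both), Tnr (0.0049 in both), Psma1 (-0.0093 in both), Chrna1 (-0.15 in both), Chrnb4 (-0.050 in both), Th (-0.046 in both) and Ddc (-0.092 in both). Values near 0 turned with a library left out or other settings. For Chrnb2 the left-out values lay between -0.086 and 0.028 (above 0 without SAL rat 7, at 0.016, and without NIC rats 9, 11, 13 and 14, at 0.028, 0.0070, 0.00034 and 0.0019), with 0.013 under 1 surrogate variable and 0.076 without the 3 libraries of least meningeal RNA; for Chrnb4 they lay between -0.071 and 0.20 (-0.028 without SAL rat 4), for Slc17a6 between -0.028 and 0.20 (-0.015 without NIC rat 13) and for Gad1 between -0.17 and 0.0013. No scaling moved the median of all genes by more than 0.017. A fit with gene length and GC terms was not run, because fewer than 80% of the genes had a length. Depth limits genes under 1 CPM, whose median standard error was 0.469.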
